A study of Drosophila melanogaster with 9 samples.

Results

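The Antennapedia complex is the cluster of Hox genes on the right arm of chromosome 3 of Drosophila melanogaster that holds lab, pb, Dfd, Scr and Antp. It was taken here as the interval from 2480 to 2830 kb of 3R in the dm3 build, 350 kb in all, set by position and not by any measured value. The interval held 700 of the 240732 windows of 500 bp on the major arms (X, 2L, 2R, 3L and 3R) and chromosome 4, called the arms here, and 70 of their 24070 tiles of 5 kb. It was described in all 9 libraries and compared with the 100 kb on either side.

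Hox genes encode homeodomain transcription factors that give each segment of the body its identity along the head-to-tail axis. Labial (lab), proboscipedia (pb) and Deformed (Dfd) act in the head and mouthparts, Sex combs reduced (Scr) in the labial segment and first thoracic segment, and Antennapedia (Antp) in the thorax. Outside the segments where they act, these genes are kept silent by Polycomb group proteins, whose complexes place trimethylation on lysine 27 of histone H3 (H3K27me3) over long stretches of chromatin. Trimethylation of lysine 4 (H3K4me3) marks the starts of active genes, and that of lysine 36 (H3K36me3) marks transcribed gene bodies, while RNA polymerase II (Pol II) marks genes that are being transcribed or are held ready for transcription.

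Chromatin immunoprecipitation followed by sequencing (ChIP-seq) was carried out with antibodies to these 4 targets in bam testis and in S2 cells. RNA of S2 cells was sequenced after isolation of mRNA. Bam testes came from males with mutations in bag of marbles, which stop germ cells before they become spermatocytes (the stocks were bam1/TM3 and bam114-97/TM6B, raised at 25°C, and the genotype in the study's methods is bam1/bam114-97). About 200 pairs of testes were pooled for each ChIP, and the tissue was mostly germ cells with some somatic cells. S2 is a line grown from Drosophila embryos, obtained from ATCC and harvested in exponential growth. The age of the males was not given in the sources used here.

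Each sample and target had 1 library, so no test between samples was possible, and no spread between replicates can be given. Intervals are 95% intervals for counting error alone. None of the 9 libraries was an input or histone H3 control. Densities were therefore not corrected for DNA copy number or for how well reads can be placed. Reads carried no molecular identifiers, so several can come from 1 molecule. After at most 3 identical reads were kept, the ChIP libraries held between 1250028 and 3729366 reads and the RNA library 7289715. Testes were fixed with formaldehyde and sonicated, whereas the S2 protocol names a digestion buffer and no fixation, so the source of the cells and the preparation of the chromatin cannot be told apart in any difference between the samples. In a mixed tissue, fewer cells with a mark and less of the mark per cell cannot be told apart either. The markers of germ cells, somatic testis cells and S2 cells were not checked, since the positions of genes in dm3 were not used here.

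For the same reason only Antp, at about 2722.5 to 2825 kb, has a section of its own. Lab, pb, Dfd and Scr lie in the 242.5 kb before it and are described together. In the order of genes of the Release 6 assembly, used for names and order only, lab comes first, followed by Edg84A and a run of Ccp84A genes that encode cuticle proteins, and then pb. After pb come zen2 and zen, genes with homeoboxes of which zen patterns the dorsal side of the embryo, and bcd, whose protein patterns the head. Ama, Dfd, Scr and the pair-rule gene ftz lie before Antp at the far end. The genes next to lab outside the complex are agt and twr, and those past Antp include Sodh1, CG1979, dj and djl.

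H3K27me3 was high over most of the complex in both samples. Its density, in reads per kb per 1000000 kept reads (RPM per kb), was 17.7 in bam testis (17.5 to 18.0, 23157 reads) and 20.5 in S2 cells (20.2 to 20.8, 19969 reads). The flank before lab held 9.37 in bam testis and 11.7 in S2 cells, and the flank past Antp 12.9 and 14.5. The complex was therefore 1.59 times its flanks in bam testis (1.55 to 1.63) and 1.57 times in S2 cells (1.53 to 1.61). This ratio depended on how much of the flank was taken, since the domain ran on past Antp, as described below. With 50 kb on either side it was 1.22 in bam testis and 1.11 in S2 cells, and with 200 kb it was 1.86 and 1.85.

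**Figure D1:**
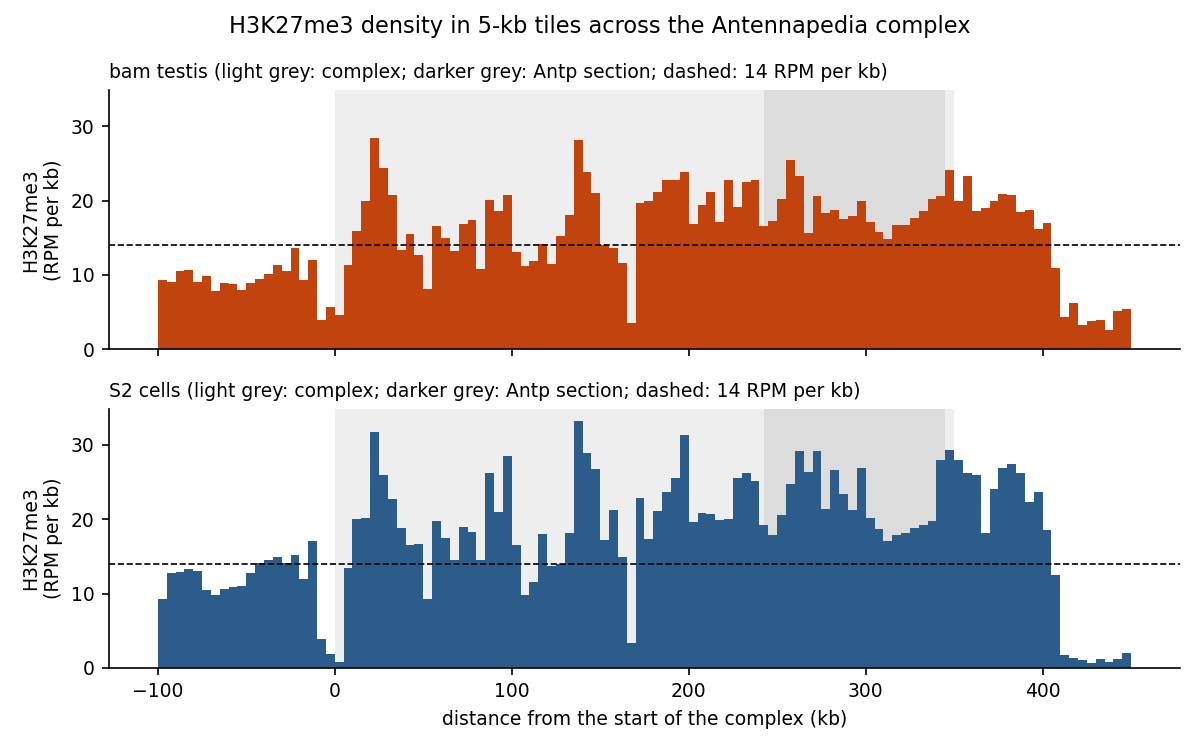
H3K27me3 density (RPM per kb) in 5-kb tiles, plotted against the distance in kb from the start of the complex, with bam testis above and S2 cells below. The complex is light grey, the Antp section darker grey, and the dashed line is the threshold of 14 RPM per kb, which 56 of the 70 tiles passed in bam testis and 63 in S2 cells.

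Set beside the 339 other intervals of 350 kb on the arms that do not overlap it, the complex had more H3K27me3 in bam testis than any of them, where the highest held 14.9 RPM per kb and the median 8.10. In S2 cells 1 interval lay above it, at 23.1 RPM per kb, and the median was 7.93. In the same comparison the complex lay near the bottom for the other marks of S2 cells. H3K36me3 was higher in 335 of the 339 intervals, RNA in 331, Pol II in 320 and H3K4me3 in 313. In bam testis it lay in the middle for H3K4me3, with 177 intervals above it, in the upper part for H3K36me3, with 85 above it, and in the lower part for Pol II, with 277 above it.

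A 500-bp window was called past the threshold at 14 or more RPM per kb, which was 27 reads for H3K27me3 in bam testis and 20 in S2 cells. In bam testis 456 of the 700 windows of the complex passed, or 65.1% (61.5 to 68.6, Wilson), where 12.5% of all windows on the arms did. In S2 cells 508 windows passed, or 72.6% (69.2 to 75.8), where 19.9% of all windows did. Of the windows called in the complex, 399 were called in both samples, which was 87.5% of those of bam testis and 78.5% of those of S2 cells. Over all windows of the arms the shared windows were 66.4% of those of bam testis and 41.7% of those of S2 cells. A larger share of windows was called in the complex than on the arms, and this alone raises the overlap. The overlaps therefore do not show whether the samples were more alike in the complex than elsewhere. Of the 5-kb tiles, 56 of 70 passed in bam testis and 63 of 70 in S2 cells, where 7.56% and 16.2% of all tiles on the arms passed.

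**Figure D2:**
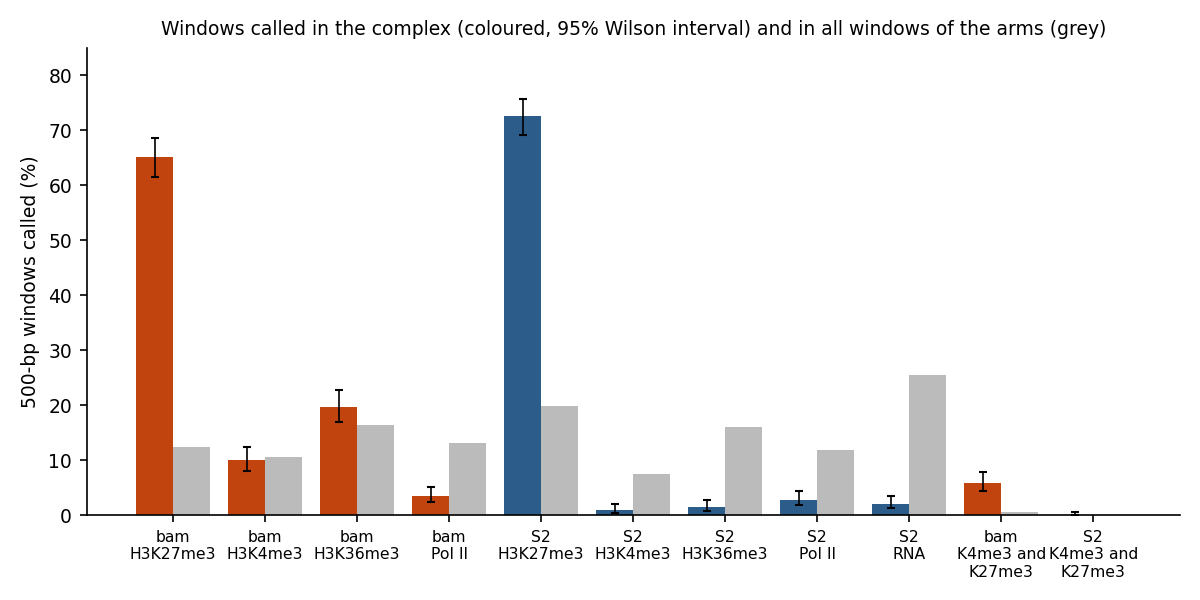
Percent of 500-bp windows called in the complex (coloured bars with 95% Wilson intervals, orange for bam testis and blue for S2 cells) and among all windows of the arms (grey bars), for each library and for windows with both H3K4me3 and H3K27me3. Only the H3K27me3 bars, at 65.1% and 72.6%, stand far above the grey bars beside them. The bar for both marks in bam testis is at 5.86%, against 0.612% of all windows, and both marks can be called only where H3K27me3 is.

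Along the complex the density of H3K27me3 was uneven, and several of the high and low places were shared by both samples. By tile it ranged from 3.49 to 28.5 RPM per kb in bam testis, with a median of 17.8, and from 0.792 to 33.2 in S2 cells, with a median of 20.1. Over all tiles of the arms the medians were 7.45 and 7.27. The tile at 3R 2500001 to 2505000 held 28.5 in bam testis and 31.7 in S2 cells, and the tile at 2615001 to 2620000 held 28.2 and 33.2. They were the highest of the complex in both samples. The third highest in bam testis was 2735001 to 2740000, inside the Antp section, with 25.5 against 24.8 in S2 cells. In S2 cells the third was 2675001 to 2680000, with 31.4 against 23.9 in bam testis. Of the 10 highest tiles in each sample, 6 were shared.

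At the finer scale of 1-kb bins, looked up after the tiles had been seen, 1 bin stood out in both samples. At 2503001 to 2504000 H3K27me3 reached 61.7 RPM per kb in bam testis (230 reads at 198 distinct positions) and 56.5 in S2 cells (157 reads at 118 positions). The same bin held 2.84 RPM per kb of H3K4me3 in bam testis and 2.40 in S2 cells, and no RNA read. The bin at 2618001 to 2619000 was the third highest in both samples, with 40.8 and 49.7. The second highest differed between them, at 2735001 to 2736000 in bam testis (46.7, where S2 cells had 34.2) and in the last 1 kb of the complex in S2 cells (51.8, where bam testis had 30.6). Of the 10 highest bins in each sample, 4 were shared.

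The places with little H3K27me3 were of different kinds. The first tile of the complex held 4.61 RPM per kb in bam testis and 0.792 in S2 cells, and was rich in the active marks described below. The tile at 2645001 to 2650000 held 3.49 and 3.31. The other targets of bam testis were low there too, with 3.98 of H3K4me3, 2.46 of H3K36me3 and 4.32 of Pol II. In S2 cells H3K4me3, at 0.960, and Pol II, at 3.01, equalled the medians of the tiles of the complex. It contained 3 of the 5 windows of the complex that had fewer than 3 reads in the 8 ChIP libraries together. The tile at 2530001 to 2535000 held 8.10 and 9.21 and had no such windows and no RNA read. Its Pol II density was 8.94 in bam testis and 6.13 in S2 cells. Between the first 10 kb and the end of the domain, 12 of 79 tiles were under 14 RPM per kb in bam testis and 5 in S2 cells. All 5 of the S2 tiles were among the 12 of bam testis.

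Across the 70 tiles the profiles of both samples had a Spearman correlation of 0.85, and across the 68 tiles past the first 10 kb it was 0.84. Over the 680 windows of 500 bp past the first 10 kb it was 0.65. The tiles of 1 sample share a library and a depth, so these values describe the profiles and carry no p. Among all 1819 tiles of the arms called in bam testis the correlation was 0.50. That set leaves out tiles under 14 RPM per kb in bam testis, which the tiles of the complex include, so the values are not directly comparable.

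**Figure D3:**
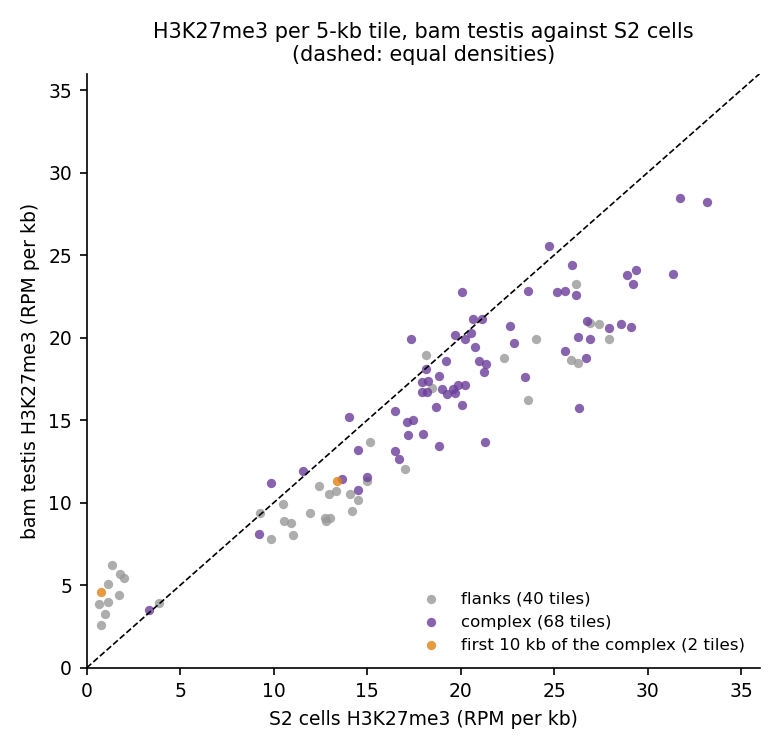
H3K27me3 density of each 5-kb tile in S2 cells (horizontal axis, RPM per kb) and in bam testis (vertical axis, RPM per kb), for the 68 tiles of the complex past its first 10 kb (purple), the 2 tiles of the first 10 kb (orange) and the 40 tiles of the flanks (grey). The dashed line marks equal densities, and 59 of the 68 tiles lie below it.

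H3K27me3 was lower in bam testis than in S2 cells over most of the complex. The ratio of the densities was 0.864 (0.848 to 0.881) over the whole complex, against 0.799 in the flank before lab and 0.894 in the flank past Antp. Its median over the tiles was 0.863, and 59 of the 68 tiles past the first 10 kb were below 1. Apart from the first tile, at 5.83, the highest ratios were 1.15 at 2655001 to 2660000 and 1.14 at 2585001 to 2590000. The lowest were 0.597 at 2745001 to 2750000 and 0.703 at 2760001 to 2765000, both in the Antp section, and 0.642 at 2635001 to 2640000. With no replicate of either sample, it is not known how far such ratios vary between libraries of the same kind.

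The Antp section, 102.5 kb long, was slightly richer in H3K27me3 than the section with lab, pb, Dfd and Scr. In bam testis it held 18.7 RPM per kb (18.2 to 19.1, 7130 reads), against 17.2 (17.0 to 17.5) in the section before it. In S2 cells the values were 22.2 (21.7 to 22.8, 6335 reads) and 19.6 (19.3 to 20.0). The ratio was 1.08 in bam testis (1.05 to 1.11) and 1.13 in S2 cells (1.10 to 1.17), and without the first 10 kb of the complex it was 1.06 and 1.10. By 50-kb segments from the start of the complex, bam testis held 16.7, 15.8, 16.8, 17.3, 19.6, 19.8 and 18.2. The segments of S2 cells held 18.7, 18.9, 19.1, 19.9, 21.5, 25.0 and 20.7. Both samples were thus highest in the segment from 250 to 300 kb, within the Antp section.

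H3K4me3 and H3K36me3 were both low over the Antp section in S2 cells, at 1.34 RPM per kb (1.14 to 1.55) and 0.939 (0.834 to 1.05), and Pol II was at 3.39 (3.14 to 3.66). No window of the section was called for H3K4me3 or H3K36me3 in S2 cells, and 5 of 205 were called for Pol II. No RNA read of S2 cells fell in the 102.5 kb, where 3 reads would be a density of 0.00402 RPM per kb. That density is spread over the whole section, while the library was made from mRNA. The limit of detection per kb of exon is therefore higher at this depth. It was not computed, since positions of exons were not used. In bam testis the section held 6.98 of H3K4me3 (6.55 to 7.42), 8.98 of H3K36me3 (8.54 to 9.44) and 5.72 of Pol II (5.33 to 6.14). Its ratio of bam testis to S2 cells was 5.23 for H3K4me3 (4.44 to 6.19) and 9.57 for H3K36me3 (8.44 to 10.9), while that of Pol II was 1.69 (1.52 to 1.87). The median of all tiles on the arms was also higher in bam testis. It was 6.68 for H3K4me3 and 5.51 for H3K36me3, against 1.44 and 1.53 in S2 cells. The part of this difference in the ratios of the section was not tested.

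The domain of H3K27me3 did not match the interval exactly at either end. Its start was taken as the first place within the interval where the mean of 3 bins of 1 kb was 14 RPM per kb or more. This was 2487001 in both samples, 7 kb into the interval. The flank before lab also met this rule in places. Bins from 2456001 in bam testis held 16.4, 14.5 and 15.0, and those from 2452001 in S2 cells 18.0, 15.1 and 15.1. Of the 20 tiles of this flank, 6 were at the threshold in S2 cells and 0 in bam testis. In S2 cells 32.0% of its windows were called, where 19.9% of all windows were. In bam testis 14.5% were, where 12.5% of all windows were. The start at 2487001 is therefore not an outer edge of raised H3K27me3 in S2 cells. The domain ended past the interval, at 2885000 in bam testis and 2889000 in S2 cells. It so spanned 398 kb and 402 kb, low places inside it included. In the 5 kb before the start the density was 5.10 in bam testis and 2.16 in S2 cells, and in the first 5 kb inside it was 14.7 and 21.0. In the last 5 kb inside it was 17.0 and 13.3, and in the 5 kb past the end it was 10.99 and 2.95. The longest run of 5-kb tiles at the threshold, from 2650001 to 2885000, was the same 235 kb in both samples. The low tile at 2645001 to 2650000 bounded it on the left. Its windows at 2646001, 2647501 and 2648001 held 0 reads in the 8 ChIP libraries together. The shared left end of the run therefore does not show that the samples were alike.

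Within the domain, the 55 kb past the interval held as much H3K27me3 as the complex itself, with 19.4 RPM per kb in bam testis (18.8 to 20.0) and 24.3 in S2 cells (23.5 to 25.1). Only 1 RNA read of S2 cells fell there. Farther on, from 2890 to 2930 kb, H3K27me3 was 4.36 in bam testis (4.03 to 4.71) and 1.23 in S2 cells (1.03 to 1.46), and every active readout was high. In S2 cells this stretch held 42.1 RPM per kb of H3K4me3, 33.8 of H3K36me3, 31.8 of Pol II and 55.4 of RNA, and in bam testis it held 18.3, 17.7 and 26.4 of the ChIP targets. The complex past its first 10 kb had 4.14 times the H3K27me3 of this stretch in bam testis (3.83 to 4.48) and 17.0 times in S2 cells (14.4 to 20.2). These stretches were chosen after the profile had been seen, so the ratios only describe it.

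**Figure D4:**
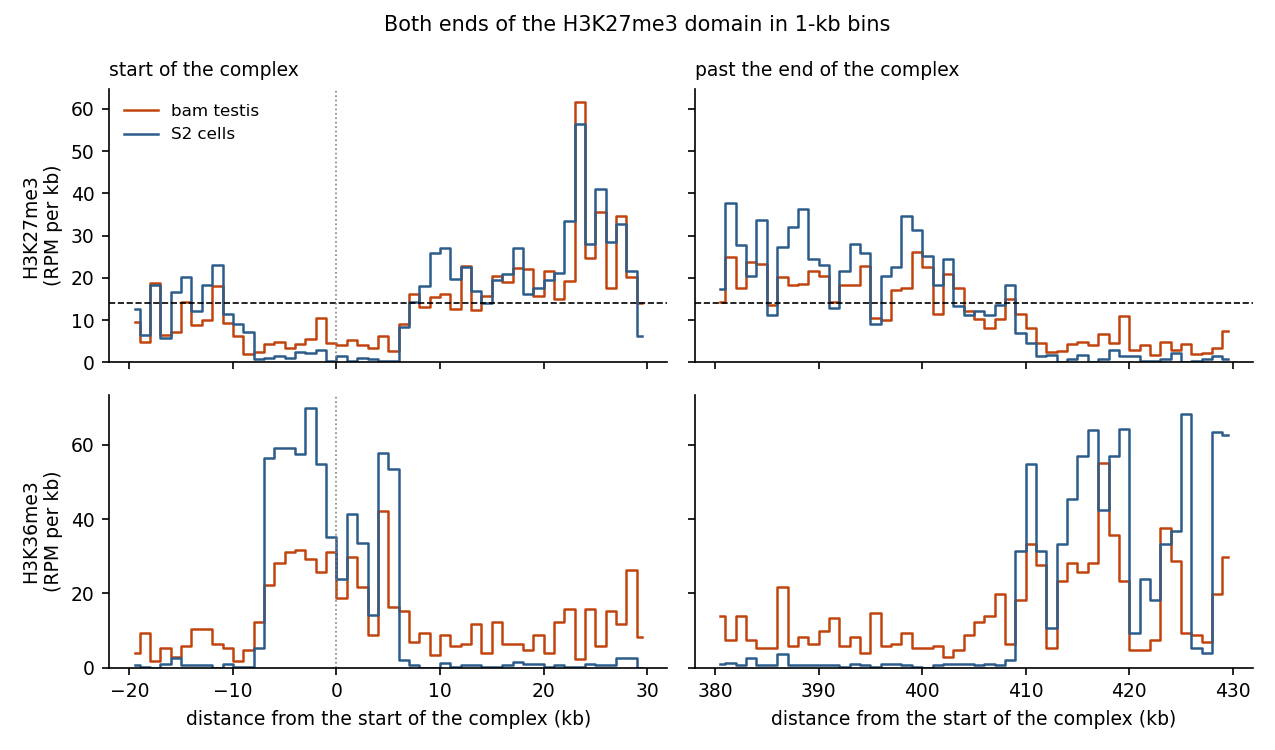
H3K27me3 (upper panels) and H3K36me3 (lower panels) in RPM per kb per 1-kb bin, bam testis in orange and S2 cells in blue, against the distance in kb from the start of the complex (dotted line), near the start on the left and past its end on the right. Within the complex H3K27me3 first passes the dashed threshold of 14 RPM per kb at 7 kb in both samples, though some bins of the flank before it pass too. H3K36me3 is high on the outer side of both edges.

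The first 10 kb of the interval were unlike the rest and were therefore split off, after their values had been seen. They held 25.9 RPM per kb of H3K4me3 in bam testis (23.3 to 28.7) and 52.4 in S2 cells (48.5 to 56.6). H3K36me3 was 17.3 and 22.7, and Pol II was 19.6 and 17.2. H3K27me3 was 7.96 and 7.09, which was 0.442 times and 0.339 times its density in the rest of the complex. Of the 1766 RNA reads of S2 cells in the interval, 1721 (97.5%) lay in these 10 kb, a density of 23.6. H3K36me3 was raised from the flank into the interval. In S2 cells every 1-kb bin from 2473001 to 2486000 was at 14 RPM per kb or more. In bam testis this held from 2473001 to 2483000, and after a bin of 8.79 the next 3 bins held 42.2, 16.4 and 15.2. This raised stretch cannot be assigned to lab or to a neighbour without positions of genes in dm3.

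Of all runs of called windows in the interval, the run with the highest H3K4me3 lay here in both samples. In bam testis it ran from 2481501 to 2486000 with a mean of 46.6 and a highest window of 86.7 RPM per kb, and in S2 cells from 2482501 to 2486000 with 146 and 226. The top runs of Pol II lay in the same place, from 2481001 to 2486500 in bam testis (29.5) and from 2482501 to 2486000 in S2 cells (40.8). The top runs of H3K36me3 were 2483501 to 2485500 in bam testis (31.9) and 2483501 to 2486000 in S2 cells (49.6). In bam testis a further run of H3K36me3, from 2481001 to 2483000, held 25.8, and in S2 cells a second one, in the first 3 kb of the interval, held 33.0. RNA of S2 cells formed 1 run of 12 windows over the first 6 kb, with a mean of 39.4 and a highest window of 77.6.

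Past these 10 kb the active readouts of S2 cells were low. H3K4me3 was 1.07 RPM per kb (0.977 to 1.18) and H3K36me3 0.742 (0.690 to 0.796), and none of the 680 windows was called for either, where 3 windows would be 0.441% and the upper Wilson limit is 0.562%. By tile, H3K4me3 ranged from 0.160 to 2.72 and H3K36me3 from 0.199 to 1.59. Over the whole interval 7 windows (1.00%) were called for H3K4me3 and 11 (1.57%) for H3K36me3, all of them in the first 10 kb, where 7.46% and 16.1% of all windows on the arms were called. Pol II was 3.34 (3.21 to 3.49) past the first 10 kb. It was called in 20 windows of the interval (2.86%, where 11.9% of all windows were called), 13 of them outside the first 10 kb.

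RNA of S2 cells was present at 1 or more RPM per kb in 15 windows of the complex (2.14%, where 25.5% of all windows were), 12 of them in the first 10 kb. Past these, 45 reads fell in 340 kb, a density of 0.0182 RPM per kb (0.0132 to 0.0243), and 61 of the 68 tiles had no read. Of the 45 reads, 37 lay in 1 run of 3 windows, from 2589501 to 2591000, at 37 distinct positions and a density of 3.38. In this run S2 cells held 5.33 RPM per kb of H3K4me3, 2.43 of H3K36me3 and 15.1 of H3K27me3. The H3K4me3 density was below the threshold of 14.

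**Figure D5:**
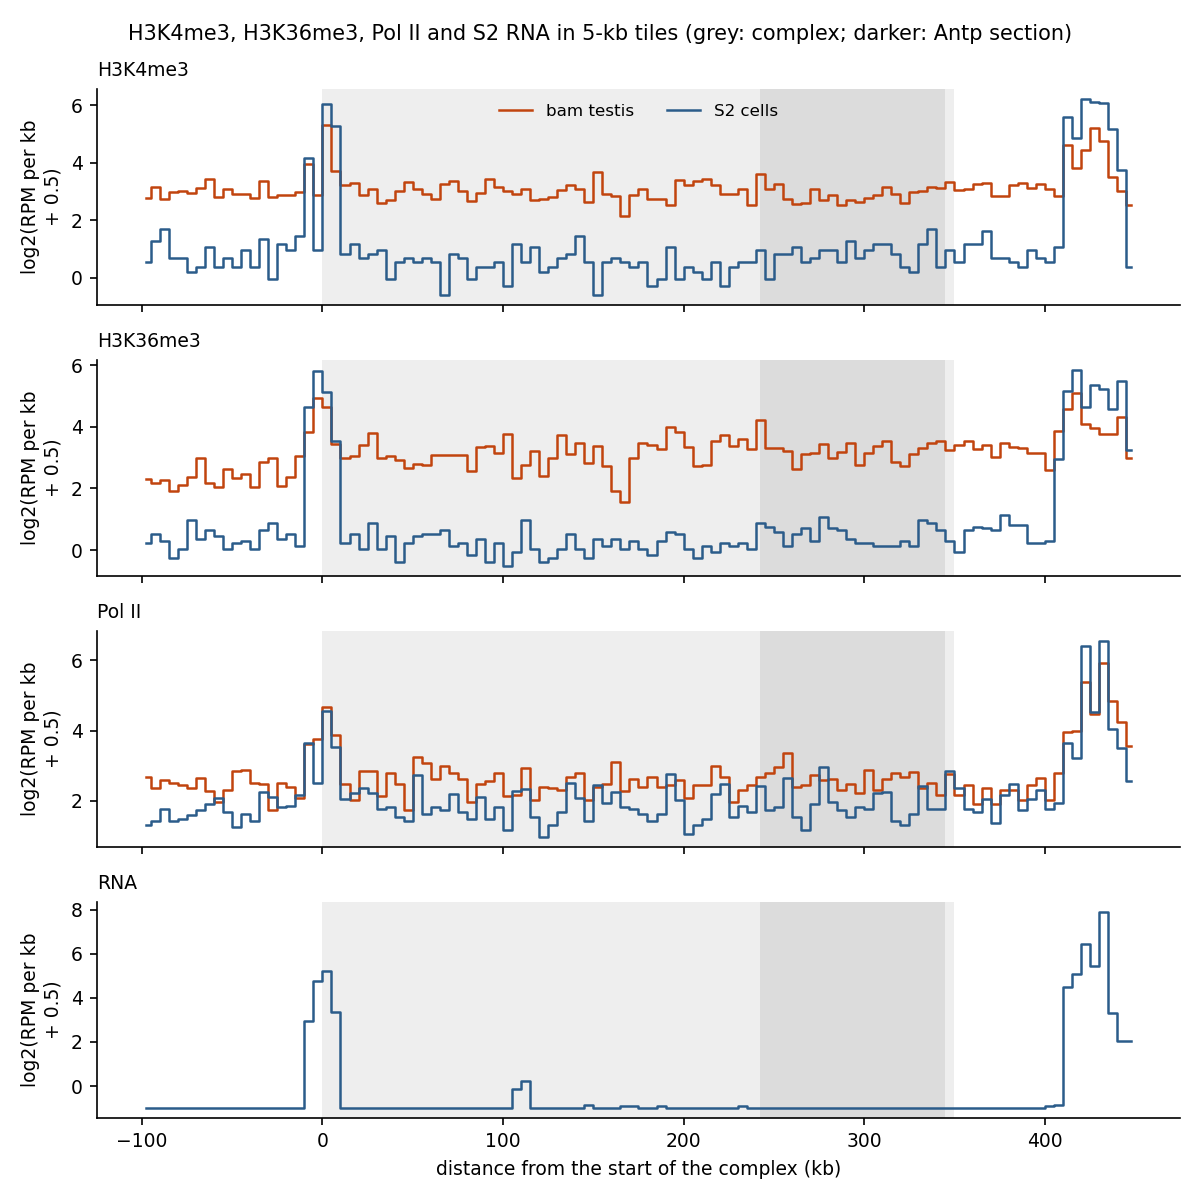
H3K4me3, H3K36me3, Pol II and RNA (top to bottom) in 5-kb tiles as log2(RPM per kb + 0.5), bam testis in orange and S2 cells in blue, against the distance in kb from the start of the complex, with the complex in light grey and the Antp section in darker grey. All readouts are high in the first 10 kb and in most tiles from 410 kb on, and between these H3K4me3 and H3K36me3 are higher in bam testis than in S2 cells in every tile.

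In bam testis the active marks were not as low. H3K4me3 past the first 10 kb was 7.52 RPM per kb (7.27 to 7.77), 7.01 times its density in S2 cells (6.35 to 7.74), and H3K36me3 was 8.74 (8.501 to 8.98), 11.8 times (10.9 to 12.7). Pol II was 5.45 (5.24 to 5.67), 1.63 times (1.54 to 1.73). Over the whole interval the ratios were 3.17 for H3K4me3, 6.56 for H3K36me3 and 1.57 for Pol II. In the flank before lab the same ratios were 3.68, 1.41 and 1.66, so for H3K4me3 and Pol II that flank lay above the whole interval, though for H3K4me3 below the part past the first 10 kb. In the flank past Antp they were 0.692, 0.889 and 0.894. The reads of bam testis were also spread more evenly over the arms, with a median tile of 6.68 for H3K4me3 and 5.51 for H3K36me3, against 1.44 and 1.53 in S2 cells. The median of the 68 tiles of the complex was 7.32 for H3K4me3 and 8.32 for H3K36me3 in bam testis, and 0.960 and 0.664 in S2 cells. The part of this evenness in the ratios between the samples was not tested.

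Of the 3 active readouts of bam testis, H3K36me3 was the one with more over the complex than over the flank before lab by its counting interval. Its density was 1.36 times that of this flank (1.27 to 1.45), and past the first 10 kb 1.32 times (1.24 to 1.41). H3K4me3 was 1.03 times the flank (0.961 to 1.10) and Pol II 1.03 times (0.947 to 1.11). Over the flank past Antp, H3K36me3 of the complex was lower, at 0.701 times (0.667 to 0.737), and over both flanks together it was 0.924 times (0.885 to 0.965). In S2 cells the complex was 0.291 times the flank before lab (0.270 to 0.313) and 0.0949 times the flank past Antp. Of the 1418 S2 reads in the flank before lab, 366 and 833 lay in its tiles at 2470001 and 2475001. The median S2 tile was 0.796 RPM per kb in that flank and 0.664 in the complex past the first 10 kb. In bam testis the tiles past the first 10 kb had a median of 8.32 RPM per kb. This compared with 4.63 in the flank before lab and 6.56 in all tiles of the arms called for H3K27me3. Of the 700 windows, 138 were called (19.7%, 16.9 to 22.8, where 16.3% of all windows were), and 128 of them lay past the first 10 kb. They were scattered, in 99 runs of which the longest had 5 windows. Across the 68 tiles H3K36me3 and H3K27me3 of bam testis had a Spearman correlation of 0.44, and in S2 cells it was 0.21. Over all tiles of the arms called for H3K27me3 in bam testis it was 0.36. That set leaves out tiles under the threshold, which the 68 tiles include, so these values are not directly comparable. The tiles share their library and depth, as above, and no p is given.

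Within the complex, the windows called for H3K27me3 in bam testis did not hold more H3K36me3 than the others. Past the first 10 kb the 453 called windows held 8.496 RPM per kb and the other 227 windows 9.23, a ratio of 0.921 (0.869 to 0.976). The ratio of H3K4me3 was 0.947 (0.883 to 1.01) and that of Pol II 1.01 (0.929 to 1.10). Over all windows of the arms these ratios were 0.721, 0.839 and 0.787. In S2 cells the ratios over all windows were 0.225 for H3K36me3, 0.163 for H3K4me3 and 0.449 for Pol II, and in the complex 1.22, 1.29 and 0.952, at densities of H3K36me3 and H3K4me3 no higher than 1.14.

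The H3K36me3 sites of bam testis with the highest windows past the first 10 kb were single windows or short runs. The window at 2703001 to 2703500 held 42.2 RPM per kb, from 36 reads at 17 distinct positions. It was also the second highest Pol II window of S2 cells outside the first 10 kb, with 27.01 from 26 reads at 11 positions, so in both libraries many of its reads were copies. Runs of 3 and of 5 windows followed at 2507501 to 2509000 and 2722001 to 2724500, each with a mean of 23.4. The latter lies across the start of the Antp section.

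H3K4me3 windows of bam testis past the first 10 kb were scattered too, with 59 called windows in 51 runs of at most 2 windows. In the whole interval 70 of the 700 windows (10.0%, 7.99 to 12.5) were called, where 10.6% of all windows on the arms were, so the share was near the background. The highest were 2553001 to 2553500, with 24.2 RPM per kb, and 2683501 to 2684000, with 22.8. No H3K4me3 read of S2 cells fell in either window. In S2 cells the mean window past the first 10 kb held 0.712 reads where H3K27me3 was called there and 0.551 where it was not. A window without a read is therefore not unusual in that library. The threshold in this library was only 10 reads a window, and the mean window past the first 10 kb held 5.19 reads where H3K27me3 was called and 5.48 where it was not.

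Pol II of bam testis was called in 25 windows (3.57%, where 13.2% of all windows were), 14 of them past the first 10 kb. The highest run there was 2737501 to 2738500, in the Antp section, with 20.9 RPM per kb from 28 reads at 28 positions, where S2 cells held 5.72. At 2644501 to 2645000 bam testis held 20.9 and S2 cells 15.6. The highest Pol II window of S2 cells past the first 10 kb was 2826501 to 2827000, after the Antp section, with 36.4 from 35 reads at 33 positions, and bam testis held 17.9 there. RNA had no read at any of these 3 places. As this library was made from mRNA, transcripts of other kinds may be missing from it.

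Windows with both H3K4me3 and H3K27me3, which the study asked about, numbered 41 in the complex in bam testis (5.86%, 4.35 to 7.85), where 0.612% of all windows had both marks. In S2 cells there were none, where 0.0569% of all windows had both, and for 0 of 700 windows the upper Wilson limit is 0.546%, where 3 windows would be 0.429%. Both marks can be called only where H3K27me3 is, and this mark covered most of the complex. In bam testis H3K4me3 was called in 8.99% of the complex's windows called for H3K27me3 (6.70 to 12.0) and in 11.9% of its other windows (8.40 to 16.6). Over all windows of the arms these shares were 4.90% and 11.4%. The largest of the smaller densities in bam testis were at 2551001 to 2551500, with 21.3 RPM per kb of H3K4me3 (15 reads) and 24.7 of H3K27me3 (46 reads), then at 2683501 to 2684000, with 22.8 and 20.9, and at 2721001 to 2721500, with 18.5 and 19.8. In S2 cells the first of these windows held 37.4 of H3K27me3 and no H3K4me3 read, which is not unusual at the low S2 density of this mark. The number rested on the low H3K4me3 threshold. With a stricter threshold, a Poisson p under 0.001 for the library's depth, which was 16 reads of H3K4me3 and 30 of H3K27me3, 1 window remained of the 41, and with 1 copy of each read there were 27.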

How the data were processed

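ChIP-seq reads of bam testis and S2 cells for H3K27me3, H3K4me3, H3K36me3 and Pol II, and RNA-seq reads of S2 cells, were used, with 1 library each. ChIP-seq reads had been aligned by the authors with ELAND to the dm3 build (at most 2 mismatches, unique matches only). The aligner of the RNA-seq reads is not given in the sources used here. The deposited files list the position and strand of each read, with no normalization and with identical reads not limited. The alignment score deposited for each RNA-seq read was not used.

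At most 3 reads with the same 5′ end and strand were kept, and 5′ ends of ChIP-seq reads were moved inward by 80 bp, to the middle of a 160-bp fragment. Midpoints of RNA-seq reads were counted. Density is the number of reads per kb per 1000000 kept reads. The complex was 3R 2480001 to 2830000, with flanks of 100 kb. Antp was taken as 2722501 to 2825000. The threshold of 14 RPM per kb is a Poisson p below 0.05 for 1 kb at a depth of 1000000 reads, the cutoff line of the study's scatter plots, with a mappable genome of 120 Mb assumed here. The study's read count per 500-bp window at each library's depth was not used, and for RNA a minimum of 1 RPM per kb was used. That p therefore does not hold for the 500-bp calls, and their strictness differed between libraries. In bam testis the call took 10 reads of H3K4me3, where a p under 0.001 needs 16, and 27 of H3K27me3, where it needs 30. For Pol II of bam testis it took 10 reads, fewer than the study's own count. Densities have exact Poisson, ratios exact conditional binomial and shares Wilson intervals. Counting, ratios and the shift were tested on simulated data.

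The members and lists were chosen with earlier results of these data known. The sites named were the 3 runs of called windows with the highest window per library (with those past the first 10 kb, looked up later), the 3 highest and lowest H3K27me3 tiles, the 3 highest and lowest ratios of the samples, and the 3 windows in which the smaller density of both marks was largest. Further runs and bins were named after their values were seen. Alternatives were no shift, 1 copy or all copies of identical reads, thinning of ChIP libraries to the shallowest, a threshold at each library's own depth, windows from position 251, flanks of 50 and 200 kb, totals on the arms, windows under 3 reads left out and an RNA minimum of 0.5.

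The gene table (Release 6) was used for names and order, with none of its coordinates. Values for single genes and sequences are not reported here. Python 3.11.15, numpy 2.4.6, scipy 1.17.1, pandas 2.3.3 and matplotlib 3.10.9 were used.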

Additional observations from a re-analysis of the deposited data

Results flagged for a closer look

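The ratio of H3K36me3 density in the complex to that in the flank before lab was 1.36 in bam testis and 0.291 in S2 cells. These values were picked out because the complex lay above the flank in 1 sample and below it in the other. Over the flank past Antp both samples were below 1, at 0.701 and 0.0949, and over both flanks together they were at 0.924 and 0.143. Of the 1418 S2 reads in the flank before lab, 366 and 833 lay in its tiles at 2470001 and 2475001, next to the complex. The median S2 tile was 0.796 RPM per kb in that flank and 0.664 in the complex. Whether the samples differ was not tested, since each had 1 library.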

How the results depend on the processing

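The 137 values recomputed under the alternatives comprised 108 that stayed within the counting interval of the main value (or, for counts of windows, within 1.5 times it), 27 that moved and 2 that changed sides. No shift, windows tiled from another start, thinning to the shallowest library, totals on the arms, windows under 3 reads left out and an RNA minimum of 0.5 moved none of the values they were applied to. With flanks of 50 kb, of which the one past Antp lies within the H3K27me3 domain, the complex over its flanks was above 1 for Pol II in bam testis (1.08) and for H3K4me3 in S2 cells (1.17). The other ratios with these flanks were, in bam testis, 1.22 for H3K27me3, 0.985 for H3K4me3 and 0.987 for H3K36me3, and in S2 cells 1.11 for H3K27me3, 0.283 for H3K36me3, 0.958 for Pol II and 0.403 for RNA. With flanks of 200 kb the ratio was 1.86 for H3K27me3 in bam testis, and in S2 cells 1.85 for H3K27me3, 0.171 for H3K36me3, 0.515 for Pol II and 0.0861 for RNA. With 1 copy of each read it was 0.160 for H3K36me3, 0.445 for Pol II and 0.0803 for RNA in S2 cells, and with all copies 0.0248 for RNA. The cause of these moves with copies was not tested. Of the shares of called windows in bam testis, 1 copy gave 7.57% for H3K4me3 and 16.1% for H3K36me3, and all copies gave 16.6% for H3K36me3. The threshold at each library's own depth needs more reads by construction, and gave 56.4% for H3K27me3, 1.43% for H3K4me3, 5.00% for H3K36me3 and 1.43% for Pol II in bam testis, and 61.6% for H3K27me3 in S2 cells. The ratio of bam testis to S2 cells for H3K36me3 was 6.01 with 1 copy. Windows with both marks in bam testis numbered 27 with 1 copy and 1 with the threshold at own depth. No paired analysis was possible because each sample and target has 1 library, and the numbers of the samples come from their order only. Depth limits the calls, since a window passed with 9 to 27 ChIP reads, depending on the library.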
